A study of Mus musculus with 5 samples.

Results

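The mitochondrial ribosomal protein genes were taken as every gene symbol of the expression table that begins with Mrpl or Mrps followed by a number, leaving out pseudogenes. The rule found 78 of 32285 symbols, 49 of them Mrpl and 29 Mrps. The choice used symbols only and no measured value. Mouse embryos of the 2-cell stage were profiled by RNA-seq with Smart-seq2, a method for small amounts of RNA. Oocytes of hormone-stimulated females aged 6 to 9 weeks were fertilised for about 6 h with epididymal sperm of males aged 12 to 16 weeks, and fertilised eggs picked at random were cultured for 24 h in KSOM medium. The exposed group (3 libraries) had 25 nM PNMC in the medium, an abbreviation that the labels leave unexplained, and the control group (2 libraries) had an equal volume of the solvent DMSO. All 5 libraries thus share superovulation, in vitro fertilisation and culture. The sources used here do not give the strain or the number of embryos in a library. They also do not say whether libraries of a group came from separate cultures, so p-values measure only the spread between libraries, possibly a technical one.

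Mitochondria carry ribosomes of their own, descended from those of bacteria. Their ribosomal RNAs are encoded in mitochondrial DNA, while all of their proteins are encoded in the nucleus, made in the cytosol and imported. The large subunit (Mrpl genes) forms peptide bonds and the small subunit (Mrps genes) reads the messenger, and the finished ribosome makes only membrane proteins of the respiratory chain and ATP synthase. Part of the proteins have bacterial counterparts, and the others joined the particle in mitochondria. The early mouse embryo lives on mitochondria inherited from the oocyte, and its mRNA at the 2-cell stage is a mixture of maternal and newly made transcripts.

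The letter in the symbol does not always give the subunit. Mrps30 and Mrps18a sit in the large subunit of the mammalian ribosome, and Mrps36 belongs to the oxoglutarate dehydrogenase complex. By structure, 51 members belong to the large subunit, 30 of them with a bacterial counterpart, and 26 to the small subunit, 16 with one. A further 5 proteins of this ribosome have other names (Dap3, Ptcd3, Aurkaip1, Chchd1 and Gadd45gip1) and are given beside the members.

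The table holds 1 normalised signal per gene and library, and the sources used here do not name its unit. The values summed to between 446010 and 454548 per library. Multiplied by the length of each gene's longest transcript in kilobases (31413 genes with a length), they summed to between 1167553 and 1212657. A value per kilobase and per 1000000 reads would give 1000000 with exact lengths. Levels of different genes are therefore compared below as values that behave like a signal per length. Read depth cannot be recovered from the table. Control library 2 listed 18595 genes above 0, and the other 4 libraries between 17408 and 17635. All 8 matched markers of the 2-cell programme and all 10 oocyte markers reached a value of 1 or more in some library, and both lists were abundant. The 2-cell list summed to 1230 and 1120 in controls and 1110 to 1310 after PNMC, and the oocyte list to 25800 in each control and 26100 to 29200 after PNMC. Of 10 cumulus cell markers 4 were listed at 0 throughout (Ptx3, Amh, Foxl2, Inhba), and the list summed to 6.44 and 9.57 in controls and 5.16 to 7.61 after PNMC. Of 10 sperm markers 3 reached 1, and Prm1, Tnp2, Smcp and Spem1 were at 0 throughout. The sperm list summed to 140 and 129 in controls and 128 to 150 after PNMC, and 6 oviduct epithelium markers, all at 1 or more in some library, to 60.8 and 64.6 in controls and 50.8 to 93.0 after PNMC.

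Transcripts of nearly the whole mitochondrial ribosome were present in 2-cell embryos, at levels that differed widely between proteins of the same particle. No member was at 0 in every library, 76 of 78 were above 0 in all 5, and 75 passed the filter for testing, which asked for 1 or more in 2 or more libraries. The means of all 78 over the 5 libraries ran from 0.439 for Mrpl33 to 84.0 for Mrpl18, a 192-fold range. The 10 highest members held 41.5% of the summed level of all 78. The median of the members' means was 12.0, against 7.09 for all 12734 tested genes and 40.7 for the 82 cytosolic ribosomal protein genes, and 50 members (64.1%) lay above the median tested gene.

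**Figure D1:**
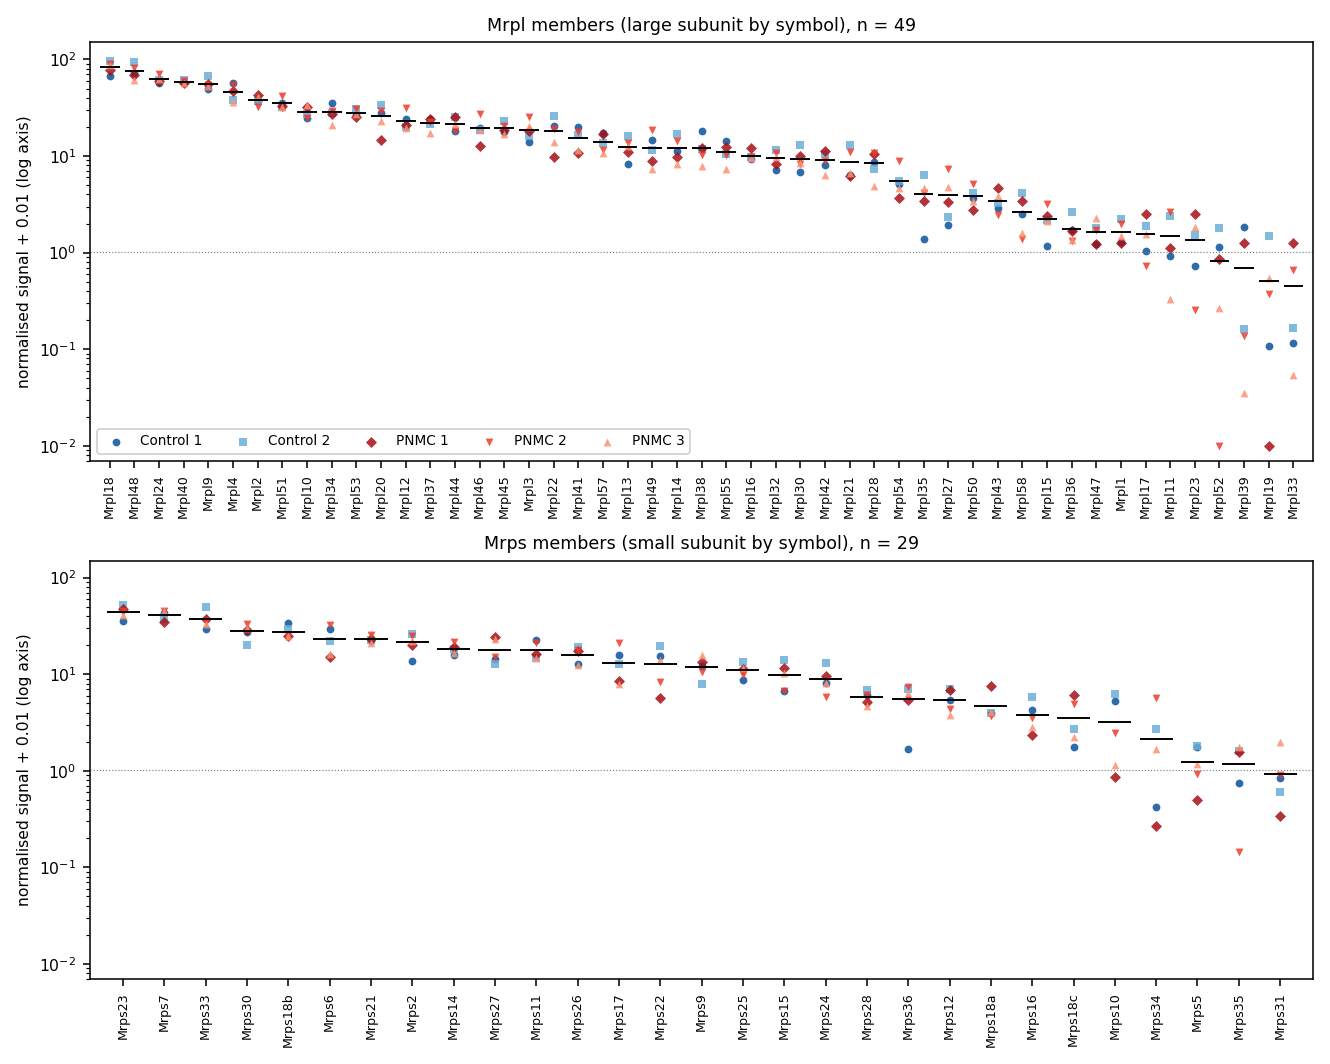
Normalised signal (plus 0.01, log axis) of each of the 49 Mrpl and 29 Mrps members in every library, ordered by the mean over the 5 libraries (black bar). The dotted line marks a value of 1; the libraries lie close together for the highest members and spread widely for the members near or under that line.

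At the top stood large subunit proteins. Mrpl18, a counterpart of bacterial L18, which binds ribosomal RNA, measured 67.4 (library 1) and 97.4 (library 2) in controls and 78.7, 89.0 and 87.4 (libraries 1, 2 and 3) after PNMC. All values below follow this order. Mrpl48, found only in mitochondria, measured 72.0 and 93.3 in controls and 69.6, 80.7 and 61.7 after PNMC. For both genes the PNMC values overlapped the control values, with control library 2 highest of the 5. Mrpl24, a counterpart of bacterial L24, ran from 56.5 to 70.1, Mrpl9 from 48.9 to 68.0 and Mrpl4 from 36.4 to 57.1. Mrpl40, whose human counterpart lies in the region deleted in DiGeorge syndrome, was the steadiest of all members. It measured 57.5 and 61.7 in controls and 57.2, 60.3 and 57.1 after PNMC, a highest to lowest ratio of 1.08.

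The highest Mrps member lay just below Mrpl4, the sixth of the Mrpl members with a mean of 46.5. It was Mrps23, found only in mitochondria, which measured 35.8 and 52.1 in controls and 46.9, 45.4 and 40.7 after PNMC. Mrps7, a counterpart of bacterial S7, measured 43.3 and 37.7 in controls and 34.8, 45.6 and 45.5 after PNMC. Mrps33 ran from 29.4 to 49.9, both ends being control libraries. The PNMC range lay inside the control range for Mrps23 and Mrps33. Mrps30, a large subunit protein in spite of its name, Mrps18b and Mrps6 followed with means of 27.9, 27.3 and 23.1.

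At the other end, 5 members had a mean under 1 and 19 lay from 1 to 5. Mrpl19, Mrpl33 and Mrps31 did not pass the filter. Mrpl39 measured 1.84 and 0.153 in controls and 1.24, 0.126 and 0.0252 after PNMC, and Mrpl52 measured 1.13 and 1.77 in controls and 0.855, 0 and 0.255 after PNMC. Mrpl23 ran from 0.245 to 2.47 and Mrps35 from 0.134 to 1.74. Mrps34, a small subunit protein, measured 0.410 and 2.70 in controls and 0.257, 5.67 and 1.65 after PNMC, and its values were scattered within both groups. Mrps5, a counterpart of bacterial S5 known from studies of mouse lifespan, measured 1.76 and 1.80 in controls and 0.494, 0.925 and 1.18 after PNMC. The groups did not overlap, but after PNMC Mrps5 reached the filter's value of 1 only in library 3, so its entry depended on the controls. Mrpl52 reached that value only in the controls. Below about 5 the libraries differed strongly from each other: the median ratio of the highest to the lowest library was 3.53 in 21 tested members with a mean under 5, 1.94 in 31 members from 5 to 20 and 1.42 in 23 members at 20 or more. The same ratios over all tested genes were 3.23, 1.74 and 1.38.

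The medians of the large and the small subunit lay close to each other. The median over the Mrpl members was 11.3 and 13.0 in controls and 10.7, 10.9 and 8.50 after PNMC. For the Mrps members the median was 12.1 and 13.2 in controls and 11.2, 9.88 and 11.6 after PNMC. The Mrpl median lay below the Mrps median in 4 of 5 libraries, and PNMC library 2 was the exception. Of the 10 highest members 7 were Mrpl and 3 Mrps. The sum over the 49 Mrpl members was 2.03 to 2.17 times the sum over the 29 Mrps members, depending on the library. Members counted as having no bacterial counterpart, with Mrps18a and Mrps18b among them, had medians of their means of 14.1 in the large and 14.3 in the small subunit, and those with a bacterial counterpart 9.82 and 10.9. The 5 ribosome proteins with other names lay in the same range, from 7.98 for Chchd1 to 42.1 for Dap3, a GTP-binding protein of the small subunit, which measured 40.8 and 42.0 in controls and 42.3, 52.5 and 32.7 after PNMC.

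Several members with known functional sites lay at different levels, from rank 18 (Mrpl12) to rank 63 (Mrpl58) of the 78 members by mean. Mrpl12, the stalk protein that recruits translation factors, measured 24.0 and 19.9 in controls and 21.1, 31.2 and 19.5 after PNMC. Mrpl45, which anchors the ribosome at the inner membrane, ran from 16.9 to 23.0. Mrps12, of the decoding centre, measured 5.41 and 6.94 in controls and 6.85, 4.31 and 3.78 after PNMC. Mrpl58, a peptidyl-tRNA hydrolase that frees stalled ribosomes, measured 2.51 and 4.10 in controls and 3.39, 1.37 and 1.60 after PNMC. The groups overlapped in all of them. Mrps18a, Mrps18b and Mrps18c are paralogues related to bacterial S18, and only Mrps18c is counted here as its counterpart. They differed in level: Mrps18b averaged 31.5 ± 2.92 (SD, n = 2) in the control group against 24.5 ± 0.356 (SD, n = 3) in the PNMC group, Mrps18a 3.99 ± 0.00544 against 5.11 ± 2.17, and Mrps18c 2.22 ± 0.636 against 4.43 ± 2.00. In each library Mrps18b was the highest of the 3. Exons of Mrps18b overlap Gm16279 on the other strand over 30.5% of their length, and those of Mrps18a and Mrps18c overlap none. Smart-seq2 does not mark strand, so reads from the shared part cannot be assigned to Mrps18b.

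The comparison of PNMC with control asked whether these transcripts differ with the exposure. No member passed limma's moderated test at an adjusted p under 0.05, where 0 of 12734 genes (0%) passed, and the smallest adjusted p of a member was 0.851, for Mrps10. An unadjusted limma p under 0.05 was found in 5 of 75 tested members (6.67%), against 636 tested genes (4.99%). Of these members 2 were higher after PNMC, where 1.73% of all genes were, and 3 lower, where 3.27% were. Of the tested members 33 had higher and 42 lower mean log2 values after PNMC, so that 56% were lower, against 56.9% of all tested genes. After scaling the libraries to equal medians 34 members were lower. The median log2(value + 1) change was -0.050 over the members and -0.048 over all tested genes, and with median scaling the Mrpl and Mrps medians (0.035 and 0.044) and that of all genes (0.027) were all above 0. The 95% interval of the change lay within 1 log2 unit in either direction for 52 members (69.3%) against 61.4% of all genes, and for 22 of the 23 members at 20 or more.

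**Figure D2:**
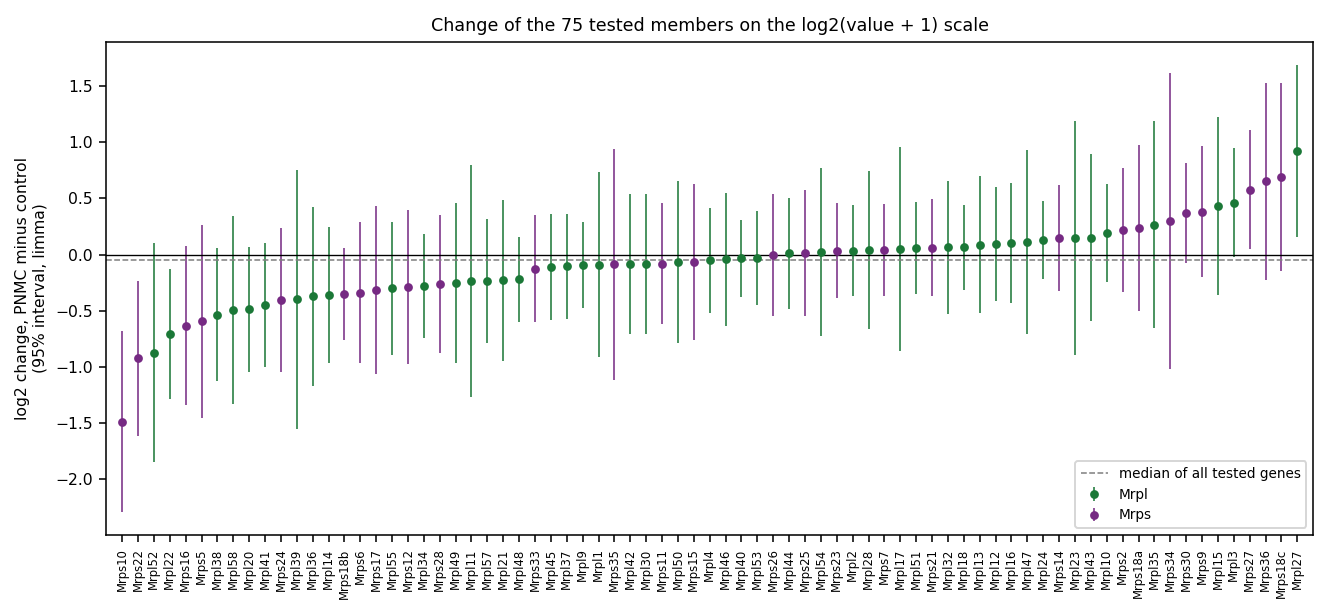
Log2(value + 1) change, PNMC minus control, of the 75 tested members with limma's 95% intervals, Mrpl in green and Mrps in purple. The points lie on both sides of the median of all tested genes (dashed, -0.048), and the 5 intervals that exclude 0 belong to Mrps10, Mrps22, Mrpl22, Mrpl27 and Mrps27.

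Both subunits had small median changes. The median was -0.050 over 47 tested Mrpl members, of which 27 were lower and 20 higher, and -0.037 over 28 tested Mrps members, of which 15 were lower and 13 higher. By structure the order turned, with a median of -0.043 over the large subunit (27 lower, 22 higher) and -0.081 over the small subunit (15 lower, 10 higher), so the large minus small difference was 0.038 by structure and -0.013 by symbol. Without control library 1 the medians by symbol were -0.13 and -0.24, and without control library 2 they were 0.06 and 0.12, so the direction in both subunits turned with the control library that was kept. Groups did not overlap in 5 Mrpl members (3 lower, 2 higher after PNMC), or 10.6%, and in 8 Mrps members (6 lower, 2 higher), or 28.6%, against 19.9% of all tested genes (11.9% lower and 7.97% higher). Over both subunits this made 13 of 75 members, or 17.3%. Mrpl52 and Mrps5 are among them, and both depended on the controls, the group where they were higher, to pass the filter. Their lack of overlap is therefore no independent support for a difference. The difference between the subunits was not tested, since genes are not replicates of a condition.

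The members with the lowest p among those with lower values were Mrps10, Mrps22 and Mrpl22. Mrps10, a counterpart of bacterial S10, measured 5.24 and 6.27 in controls and 0.859, 2.48 and 1.14 after PNMC. All 3 PNMC values lay below both controls, and the fitted difference was -1.49 log2 units (SE 0.375, limma adjusted p = 0.851). Mrps22, a small subunit protein whose human counterpart is mutated in a mitochondrial disease, measured 15.5 and 19.7 in controls and 5.61, 8.22 and 14.1 after PNMC. PNMC library 3 came close to control library 1, although the groups did not overlap (difference -0.92, SE 0.319, limma adjusted p = 0.967). Mrpl22, a counterpart of a bacterial protein that lines the exit tunnel, measured 20.7 and 26.2 in controls and 9.88, 19.2 and 13.9 after PNMC, also without overlap (difference -0.71, SE 0.269, limma adjusted p = 0.967). Mrpl38, found only in mitochondria, measured 18.4 and 11.8 in controls and 12.1, 10.2 and 7.84 after PNMC, so the groups overlapped. Mrpl52 and Mrps16 did not overlap, but Mrpl52 passed the filter only through the controls. Mrps16, a counterpart of bacterial S16, averaged 5.03 ± 1.12 (SD, n = 2) and 2.89 ± 0.590 (SD, n = 3).

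Among members with higher values, Mrpl27, a counterpart of a bacterial protein beside the site of peptide bond formation, measured 1.94 and 2.32 in controls and 3.32, 7.36 and 4.74 after PNMC. All 3 PNMC values lay above both controls (difference 0.92, SE 0.357, limma adjusted p = 0.967). Mrps27, which carries RNA-binding repeats, measured 14.2 and 12.7 in controls and 24.5, 15.2 and 23.2 after PNMC. The groups did not overlap, but PNMC library 2 came close to control library 1 (difference 0.58, SE 0.246, limma adjusted p = 0.967). Mrpl3, a counterpart of bacterial L3, measured 13.9 and 16.2 in controls and 18.0, 25.3 and 20.3 after PNMC. Mrps30 measured 27.5 and 19.9 in controls and 28.6, 33.1 and 30.2 after PNMC, and Mrps18c overlapped between the groups. Mrps36 measured 1.68 in control library 1 but 7.06 in control library 2 and 5.35, 7.29 and 6.38 after PNMC, so a single control library set its fitted change of 0.65, which was -0.14 without that library.

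**Figure D3:**
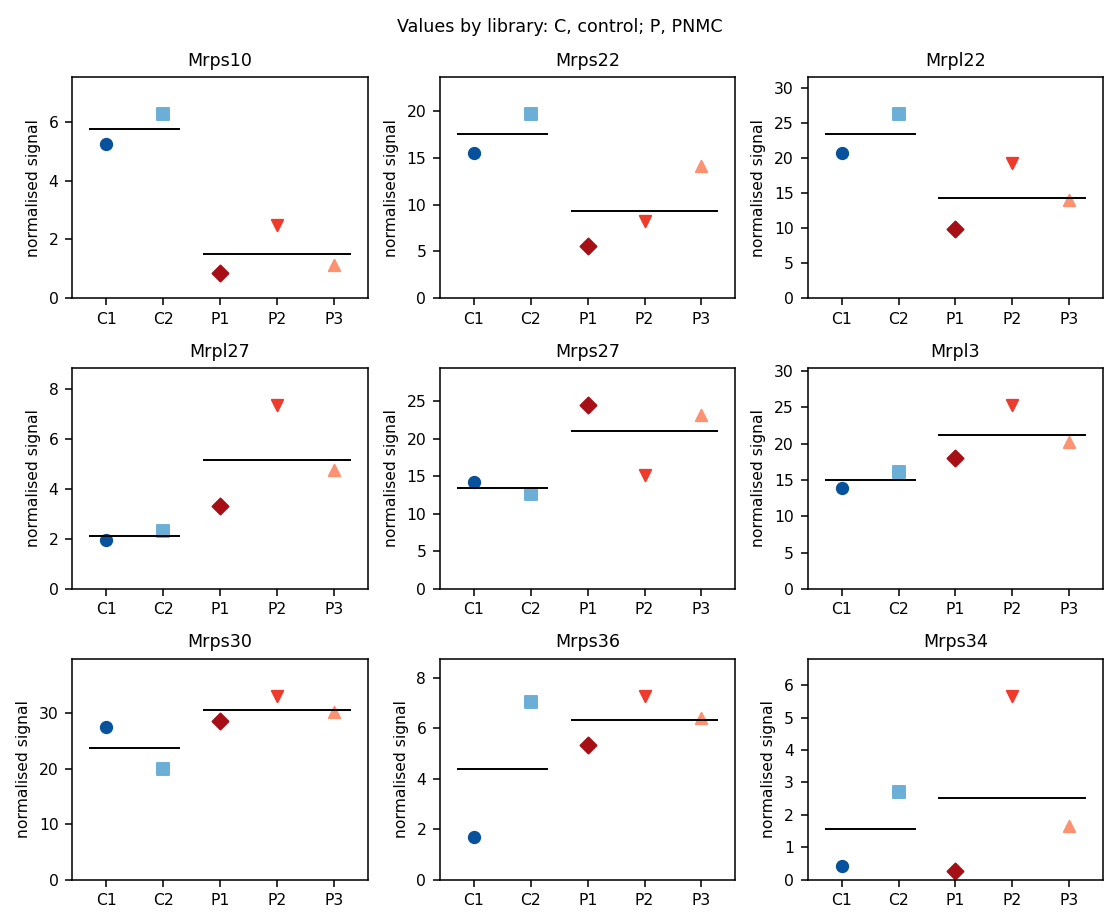
Normalised signal in control libraries 1 and 2 (C1, C2) and PNMC libraries 1 to 3 (P1 to P3) for the 3 lower and 3 higher members with the smallest p, for Mrps30 and Mrps36, and for the scattered Mrps34, with each group's mean as a bar. The PNMC points of Mrps10 lie between 0.859 and 2.48, below the controls at 5.24 and 6.27, while in Mrps36 only control library 1 stands apart.

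The sequence in front of these genes is shown for the 5 members with an unadjusted limma p under 0.05, with Mrpl9 as an abundant member, because the members that were lower and those that were higher can then be read side by side. Sequences are RefSeq promoter windows of build GRCm38.p6, the 150 bases just before the annotated start, 5′ to 3′ on the gene's strand. Capitals mark the letters of a searched motif on either strand. The NRF1 letters, GCGCATGCG, belong to a regulator of nuclear genes for mitochondria. The ETS letters, CCGGAAG, are shared by a family of transcription factors with GABPA among its members. The YY1 letters, AAGATGGC, belong to a zinc finger factor. The SP letters, GGGCGG, belong to the SP family of factors for GC-rich promoters. The TATA box was searched as the letters TATAAA, and no searched motif contains another.
Mrps10, chr17:47369047-47369196, plus strand: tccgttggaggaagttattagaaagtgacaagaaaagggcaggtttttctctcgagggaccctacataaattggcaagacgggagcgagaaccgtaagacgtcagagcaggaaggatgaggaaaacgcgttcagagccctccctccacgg
Mrps22, chr9:98601680-98601829, minus strand: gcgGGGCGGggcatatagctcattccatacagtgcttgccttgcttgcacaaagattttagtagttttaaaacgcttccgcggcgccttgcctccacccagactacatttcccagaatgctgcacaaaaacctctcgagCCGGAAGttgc
Mrpl22, chr11:58171514-58171663, plus strand: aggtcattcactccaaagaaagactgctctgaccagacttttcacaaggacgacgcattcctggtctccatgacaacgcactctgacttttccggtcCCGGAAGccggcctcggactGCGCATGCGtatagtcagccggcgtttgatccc
Mrpl27, chr11:94653641-94653790, plus strand: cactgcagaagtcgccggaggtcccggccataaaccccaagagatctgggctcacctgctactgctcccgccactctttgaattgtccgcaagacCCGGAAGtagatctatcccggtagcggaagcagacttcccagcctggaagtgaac
Mrps27, chr13:99344636-99344785, plus strand: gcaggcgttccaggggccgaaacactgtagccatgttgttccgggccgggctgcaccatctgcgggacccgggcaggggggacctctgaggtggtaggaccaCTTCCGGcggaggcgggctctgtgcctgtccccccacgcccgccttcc
Mrpl9, chr3:94443186-94443335, plus strand: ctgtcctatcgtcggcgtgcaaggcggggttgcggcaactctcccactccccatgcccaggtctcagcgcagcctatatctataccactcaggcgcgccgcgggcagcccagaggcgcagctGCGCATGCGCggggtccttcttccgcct
The ETS letters stood in the windows of Mrps22 and Mrpl22, which had lower values after PNMC, and of Mrpl27 and Mrps27, which had higher values. The Mrps10 window held none of the 5 motifs. Mrpl9 and Mrpl22 held the NRF1 letters.

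Over the windows of 250 bases before to 50 after a start, 69 of 78 members matched, with 75 windows. The ETS letters were in 26 of these windows (34.7%), against 17% of the windows of tested genes and 8.86% of all 32851 windows. The NRF1 letters were in 7 (9.33%), against 3.65% and 1.75%, and the YY1 letters in 12 (16%), against 4.25% and 2.75%. The SP letters were in 52% of member windows and 57.8% of those of tested genes, and TATAAA in 6.67% and 7.97%. By subunit, the ETS letters were in 31.2% of Mrpl and 40.7% of Mrps windows, and the NRF1 letters in 6 of 48 Mrpl and 1 of 27 Mrps windows. Windows of members with a mean of 20 or more held the ETS letters in 33.3% and those of members under 5 in 42.9%. A match describes letters and is not a binding site.

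Many members share their start region with a neighbour. In GENCODE M21, 33 of 78 members (42.3%) began within 1000 bases of the start of a protein-coding gene on the opposite strand, against 16.5% of tested protein-coding genes. Mrpl46 and Mrps11 form such a pair within the family, 1 from each subunit, and averaged 19.4 ± 5.21 and 17.7 ± 3.69 (SD, n = 5). Partners with mitochondrial roles were Sars2, the seryl-tRNA synthetase of mitochondria (1.52 beside Mrps12 at 5.46), Twnk, the mitochondrial DNA helicase (5.27 beside Mrpl43 at 3.42), Ptcd2 beside Mrps27, and the complex I genes Ndufs6 and Ndufb5 beside Mrpl36 and Mrpl47. Levels within a pair could differ widely, as for Mrps18c at 3.55 ± 1.89 beside the helicase gene Helq at 107 ± 15.3. Smart-seq2 does not mark strand, so reads from overlapping exons cannot be told apart. Exons of 14 members overlapped a gene on the other strand over at least 10% of their length, among them Mrps25 (69.8%, with Nr2c2), Mrps34 (63.4%, with Mapk8ip3), Mrpl19 (36.0%) and Mrps27 (24.2%). So did exons of Mrpl43 (33.4%, with Twnk), Mrpl47 (24.2%, with Ndufb5 and Actl6a) and the abundant Mrpl24 (26.3%, with Rrnad1) and Mrpl18 (10.1%, with Tcp1). Mrps10, Mrps22 and Mrpl22 overlapped none. In 21 members at least 10% of the 50-base stretches of their transcripts also occur in other genes. For Mrpl22 it was 22.4%, shared with the predicted gene Gm6997, and for Mrpl27 26.9%, shared with Gm6304 among others. The abundant Mrpl48 shared 13.7%, with Rab6a among others, while Mrps22 shared none and Mrps10 3.7%.

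The members' mean level differed between libraries of the same group. Averaged over the tested members, the deviation from each gene's 5-library mean was -0.066 and 0.16 log2 units in controls and -0.039, 0.067 and -0.12 after PNMC. The control libraries thus lay below and above, and PNMC library 3 was lowest. Control library 2 held the highest value of 30 of 75 members (40%) against 24.7% of all tested genes, and the lowest of 3 (4%) against 15.5%. PNMC library 3 held the lowest value of 23 members (30.7%) against 21.9%, and the highest of 4 (5.33%) against 18.5%. The Mrpl mean deviation minus the Mrps one was 0.035 and -0.034 in controls and 0.053, 0.025 and -0.079 after PNMC. By structure, the large subunit deviated by -0.054 and 0.13 in controls and -0.0043, 0.073 and -0.15 after PNMC. The small subunit deviated by -0.046 and 0.21 in controls and -0.11, 0.039 and -0.095 after PNMC. Control library 2 also listed the most genes above 0 and had the highest summed cumulus (9.57) and blood and immune markers, the latter at 14.6 and 25.7 in controls and 10.6 to 13.4 after PNMC. Of those 10 blood and immune markers 3 reached 1, and Hbb-bt, S100a8 and S100a9 were at 0 throughout. The part of these markers in the members' levels was not tested. The libraries hold whole 2-cell embryos, so the values do not say which cells the marker transcripts came from.

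**Figure D4:**
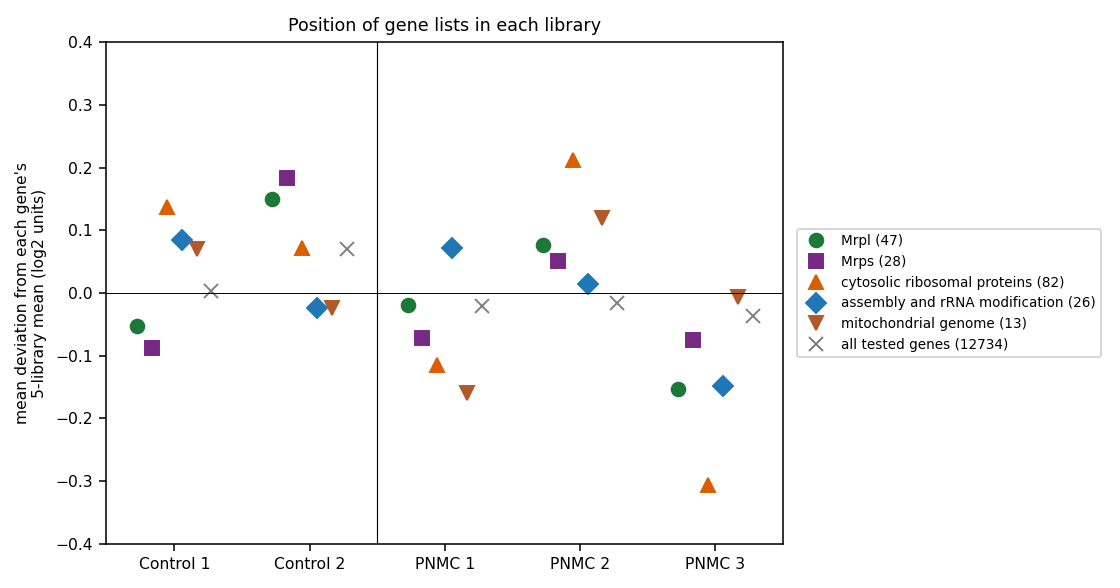
Mean deviation of each gene list from its genes' 5-library means (log2 units) in every library, with control libraries left of the line. Mrpl and Mrps points lie at 0.15 and 0.18 in control library 2 and at -0.15 and -0.075 in PNMC library 3. Cytosolic ribosomal proteins are lowest in PNMC library 3, at -0.31.

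Other genes of mitochondrial translation were set beside the members. None passed the adjusted threshold in limma's test. Of the 5 ribosome proteins with other names 4 were lower and 1 higher. Chchd1 measured 8.54 and 10.2 in controls and 5.17, 11.6 and 4.38 after PNMC, and Aurkaip1 23.5 and 19.4 in controls and 22.6, 18.3 and 13.8 after PNMC, both with overlap. Among 26 tested factors of mitoribosome assembly and ribosomal RNA modification, 16 were lower and 10 higher after PNMC, with a median change of -0.037. Gtpbp10, a GTPase of large subunit maturation, averaged 2.26 ± 0.965 (SD, n = 2) and 4.92 ± 1.85 (SD, n = 3), and Rcc1l, an assembly factor, 2.71 ± 1.81 and 0.954 ± 0.891. After PNMC Rcc1l reached the filter's value of 1 only in library 2, so its entry depended on the controls. The 14 tested translation factors had a median of -0.046 (8 lower, 6 higher), with Oxa1l, the insertase for proteins leaving the ribosome, at 9.14 ± 3.92 and 5.48 ± 2.08. Guf1, an elongation factor, was listed at 0 and 0.106 in controls and at 1.34, 0.291 and 1.44 after PNMC. It passed the filter only through PNMC libraries 1 and 3, the group where it was higher, so its difference is not independent of the filter. Of 14 tested genes of mitochondrial DNA upkeep and transcription 10 were lower and 4 higher, with a median of -0.13. Tfam, which packages mitochondrial DNA, averaged 2.93 ± 1.59 and 5.07 ± 1.45, and Ssbp1, which binds its single strands, 16.3 ± 0.793 and 13.1 ± 3.74. These lists lay at lower levels than the ribosomal proteins, with medians of their genes' means of 6.00 for assembly factors, 4.49 for translation factors and 2.81 for DNA upkeep. The 13 messengers that the mitochondrial ribosome reads had a median mean level of 1767. Of these 11 were lower (84.6%, against 56.9% of all tested genes) and 2 higher after PNMC. None had an unadjusted limma p under 0.05, and the median change of the 13 was -0.044, against -0.048 over all tested genes. PNMC library 1 held the lowest value of 9 of the 13, and PNMC library 2 the highest value of 8. The complex I subunits mt-Nd2 and mt-Nd1, which had the smallest p of this list, overlapped between the groups. Control means were 1299 ± 66.6 for mt-Nd2 and 3864 ± 93.0 for mt-Nd1 (SD, n = 2), and PNMC means 1174 ± 158 and 3559 ± 457 (SD, n = 3). Cytosolic ribosomal proteins, built for the other ribosome of the cell, were lower in 60 of 82 genes (73.2%) against 56.9% of all tested genes, with a median of -0.16. At an unadjusted limma p under 0.05, 7 of the 82 (8.54%) were lower, against 3.27% of all tested genes, and 0 higher, against 1.73%. Rpl18, of the large subunit, measured 34.6 and 40.1 in controls and 18.5, 23.4 and 15.9 after PNMC, without overlap (difference -0.93, SE 0.216, limma adjusted p = 0.595). Rps23, of the small subunit, measured 48.2 and 41.9 in controls and 36.3, 35.5 and 20.6 after PNMC, also without overlap. The mean deviation of the cytosolic list was 0.14 and 0.07 in controls and -0.12, 0.21 and -0.31 after PNMC. Control library 1 lay above control library 2 in the cytosolic list and below it in both mitochondrial subunits.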

How the data were processed

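The authors deposited 1 table of normalised signal values for 32285 gene symbols in 5 libraries. Per the submitters' processing notes, Trimmomatic, HISAT2 2.0.5, HTSeq, DESeq2 1.16.1 and build GRCm39 were used. The sources used here do not say which of these made the signal values, nor name the annotation. Per the labels' protocols, libraries were made with Smart-seq2. Low values had no common step, so no reads were recovered and no count test was run. Columns were matched to samples by title.

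The filter kept 12734 genes that reached 1 or more in 2 or more libraries. Log2(value + 1) was tested with limma 3.58.1 in R 4.3.3 (moderated test with mean-variance trend and robust variances), 3 PNMC against 2 control libraries, Benjamini-Hochberg over all tested genes, threshold 0.05. The fit was tested on simulated data with known answers. Changes were set only in genes of higher mean level, with noise drawn from limma's own variances. The simulation therefore does not show how well changes in members of low level would be found. The design was written for counts or normalised values, and the second branch applied. Members and lists were chosen with earlier results of these data known. Named members were, by symbol, the 6 highest and the 3 lowest tested Mrpl and Mrps, those under the filter, for each direction 6 by smallest p, the Mrps18 paralogues and 8 with set roles, and 2 genes by p of each other list. The other proteins named beside them, the partner genes and Mrpl46 and Mrps11 were chosen from the annotation. Of the list names, Wbscr16 and Mtres1 were not matched. Neighbouring genes, exon overlap and shared 50-base stretches were computed from GENCODE M21 (GRCm38), a build other than the submitters', and its coordinates are not printed. Promoter windows came from RefSeq (GRCm38.p6). Alternatives were another pseudocount, filters, scalings, variance model, replicate block, assignment to subunits and each library left out.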

Additional observations from a re-analysis of the deposited data

How the results depend on the processing

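No member passed the adjusted threshold in limma under any of the 12 alternative fits, and all 5 members with an unadjusted p under 0.05 kept their direction in each of them that tested the gene. With 1 library left out, the number of all genes past the threshold ranged from 0 to 1 (1 without PNMC library 1), the members lower after PNMC from 32 to 52, the Mrpl median from -0.14 to 0.06, the Mrps median from -0.24 to 0.12, their difference from -0.087 to 0.11 and the members without overlap from 18 to 37, where fewer libraries leave less chance of overlap. The share of all tested genes without overlap was not determined with 1 library left out. The 18 to 37 members without overlap therefore have no background to be read against. Where a control was left out, the lone one was assumed to vary like the others. A minimum of 10 left 6 members without overlap and a difference of -0.10 between subunits. Fewer members were tested there, 48 in all. The share of all tested genes without overlap was not determined at this filter, so the 6 members have no background either. With members assigned by structure that difference was 0.038. All other values for the members as a whole moved by less than the spread between libraries or by under 1.5 times. The adjusted p of Mrps10 ranged from 0.537 to 1 over these fits in limma.

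Of 33 named members with a fitted change, 14 changed sign with some library left out. Their ranges were -0.20 to 0.33 for Mrpl18, -0.083 to 0.018 for Mrpl40, -0.33 to 0.14 for Mrpl9, -0.33 to 0.23 for Mrpl4, -0.23 to 0.30 for Mrps23, -0.054 to 0.17 for Mrps7, -0.50 to 0.25 for Mrps33, -0.15 to 0.59 for Mrpl23, -0.37 to 0.32 for Mrps35, -0.40 to 1.00 for Mrps34, -0.14 to 1.44 for Mrps36, -0.039 to 0.40 for Mrps18a, -0.11 to 0.22 for Mrpl12 and -0.29 to 0.071 for Mrpl45. Median scaling turned Mrpl40 to 0.053 and Mrpl4 to 0.035, and quantile normalisation turned Mrps35 to 0.0067; the cause was not tested.

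With the replicate number as a block the medians were -0.014 for Mrpl and -0.023 for Mrps, 40 members were lower, Mrpl4 was 0.10 and Mrps7 -0.020, and no call changed (0 genes past the threshold, 544 at an unadjusted p under 0.05). Deviations of same-numbered libraries correlated at -0.058 for number 1 and -0.043 for number 2. The deviations of the 2 controls mirror each other, so these correlations cannot show whether same-numbered libraries were handled together. The depth is unknown, and values under about 5 are the least precise.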
